A study of Mus musculus with 4 samples.

Results

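Low-share circRNAs are circular RNAs whose back-splice junction is rare beside the linear reads across the same ends. The members were chosen by 2 measured values, as the circRNAs with 5 or more junction reads over all 4 libraries and a pooled junction ratio under 0.01. A junction read crosses the joint of a downstream splice site to an upstream one, and a non-junction read runs linearly across one of those ends. The ratio is 2J / (2J + N), where J are the junction reads and N the non-junction reads, summed over the libraries that list the circRNA. The rule gave 571 members among 4221 circRNAs with 5 or more junction reads, which is 13.5%, and among 13499 listed in all. Both kinds of read chose the members, so the low ratios, and the high non-junction reads they need, are a description and not a finding.

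The libraries were made from total RNA of whole lungs of C57BL/6 mice, with 1 library at each of 4 stages. The pseudoglandular library is of embryonic day 14.5, the canalicular of embryonic day 16.5, the terminal sac of embryonic day 18.5 and the alveolar of newborn day 7.5. No genotype or treatment is named, and how many animals were pooled is not stated in the labels. No stage has a second library, so no p-value is given and each comparison is between libraries. Intervals are 95% intervals for counting error of reads only, and reads copied by PCR are not independent molecules.

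In back-splicing the spliceosome joins the donor site of an exon to the acceptor site of the same or an upstream exon, and the product is a closed ring without a cap or a poly(A) tail. Most host genes make their linear mRNA from the same exons, so the ratio weighs the ring against the linear RNA at those splice sites. Highly transcribed genes can have a low ratio even where their ring is sequenced many times.

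Junction sequences are shown for 7 low-share circRNAs whose ends both lie at exon boundaries and on which the results below turn. They come from App (amyloid precursor protein), Nedd4 (a ubiquitin ligase), Pecam1 (an endothelial adhesion molecule), Picalm (a clathrin assembly protein), Ywhae (a 14-3-3 adaptor), Pde5a (a cGMP phosphodiesterase) and Ddx17 (an RNA helicase). Each line reads 5′ to 3′ on the host strand, from GENCODE M21 transcripts of build mm10. Lower case is the last 15 bases of the donor exon and capitals are the first 15 bases of the acceptor exon. The Pde5a ends share 6 bases, so the position of that junction is not fixed by its reads.
App: gcggtgcccccaaggTTCCCACGACAGCAG
Nedd4: gatgaaaatcgtttgGTATGGGAGTTTTGC
Pecam1: ttgagcctcaccaagCCCCAGTGGATGAAG
Picalm: gtatcaggagcacagGATTCAGTCCTTCTC
Ywhae: acatgcagggtgatgAAATGGTGGAATCAA
Pde5a: tgatcctttaacgagAGACATGGTCAACGC
Ddx17: gggaagacattggcgGTTTGGAGCAAGAGG
The host lies on the plus strand for Nedd4 (chr9:72669952-72686114, exons 2 to 6), Picalm (chr7:90189150-90197020, exons 14 to 20), Ywhae (chr11:75751881-75759428, exons 2 to 5) and Pde5a (chr3:122747889-122781634, exons 2 to 7). It lies on the minus strand for App (chr16:85024853-85030365, exons 7 to 9), Pecam1 (chr11:106679549-106685248, exons 8 to 13) and Ddx17 (chr15:79541034-79543856, exons 2 to 4). Exon numbers are those of 1 transcript per circRNA and can differ in others.

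Another set shows ends that repeat the same bases. Where the bases at the donor end also stand at the acceptor end, the junction can be shifted along them without changing the spliced sequence, and its exact position in the RNA is not fixed by the reads. Capitals mark the shared stretch in both windows of 30 bases. The hosts are the collagen genes Col1a2, Col4a1 and Col3a1, the elastin gene Eln, Canx (calnexin, a chaperone of the endoplasmic reticulum) and Rpph1 (the RNA subunit of RNase P).
Col1a2 donor end: gcctcaggtgaccgGGGTGAAGCTGGTGCt
Col1a2 acceptor end: cctgatggaaacaaGGGTGAAGCTGGTGCa
Col4a1 donor end: ctccgggagagattGGTTTCCCTggacaac
Col4a1 acceptor end: aaccaggccctccaGGTTTCCCTactccag
Eln donor end: aagctgctaagtatGGTGCTGGAggagctg
Eln acceptor end: gagttaggctcccaGGTGCTGGAatcccag
Col3a1 donor end: cagcctggagatAAGGGTGAAggtggttcc
Col3a1 acceptor end: ccaaagggtgaaAAGGGTGAAccaggtggt
Canx donor end: aagaggagaagcttGAAGAGAAacagaaga
Canx acceptor end: aagaagggaaggaaGAAGAGAAgaacaaga
Rpph1 donor end: agttcaatggctGAGGTGAGgcacctcccg
Rpph1 acceptor end: tccccgagcgggGAGGTGAGttcccagaga
The stretch is 15 bases for Col1a2 (chr6:4528306-4530225, plus strand) and 9 bases for Col4a1 (chr8:11231947-11235259, minus), Eln (chr5:134715684-134718119, minus) and Col3a1 (chr1:45337958-45338627, plus). It is 8 bases for Canx (chr11:50297274-50297318, minus) and for Rpph1 (chr14:50807500-50807650, minus). The Canx circRNA spans 45 bases inside exon 13, the shortest span of all 571 members.

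The last set shows ends that lie inside an annotated exon. Capitals mark the bases just outside the circle. In Sftpc (surfactant protein C, made by alveolar type 2 cells) and in Gm20425, whose locus overlaps the transferrin gene Trf, the acceptor end follows AG, as an acceptor site does. In Slc34a2 (a phosphate transporter of type 2 cells), H19 (an imprinted long non-coding RNA) and Eef2 (a translation elongation factor) the flanking bases are AC and CT, which read as GT and AG on the other strand.
Sftpc acceptor end: atgagtagcaaagAGgtcctgatggagagt
Gm20425 acceptor end: ggaacaacctgaaAGgcaagaagtcctgcc
Slc34a2 acceptor end: gaagatgccccagACattctgaaagtcatc
Slc34a2 donor end: ttcagtctcccagacCTtgctgtgggcatc
H19 acceptor end: attcatcccggttACttttggttacaggac
H19 donor end: ccagagcctcaataaCTggagaatggaaaa
Eef2 acceptor end: atcgcccatgtggACcacggcaagtccacg
Eef2 donor end: cgtcatcatctctacCTacggcgagggcga
The positions are chr14:70522154-70524022 for Sftpc (minus strand, exons 1 to 3), chr9:103215193-103217455 for Gm20425 (minus, exons 12 to 14) and chr5:53064000-53067601 for Slc34a2 (plus, exons 7 to 10). H19 lies at chr7:142577287-142577892 (minus, exon 1) and Eef2 at chr10:81177749-81178852 (plus, exons 2 to 4). CIRI, the caller that the file type names, is known to keep junctions flanked by splice dinucleotides, so their presence is part of how the list was made.

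The members had a median of 7 junction reads (range 5 to 893) and of 2630 non-junction reads (992 to 370134). Their pooled ratio had a median of 0.612% and ran from 0.00986% to 0.999%. The other 3650 circRNAs with 5 or more reads had medians of 9 junction reads, 604 non-junction reads and a ratio of 3.81%. A ratio under 0.01 at 5 junction reads needs more than 990 non-junction reads, and 1065 of the other circRNAs also had at least that many. Of the 100 circRNAs with most non-junction reads, 78 were members. Just inside the limit were Arfip1 (0.999%, 8 junction reads), Ccdc6 (0.998%, 5) and Trappc3 (0.997%, 6), and just outside it Zfp638 (1.003%, 18), Rsrc2 (1.005%, 15) and Pcm1 (1.006%, 5).

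**Figure D1:**
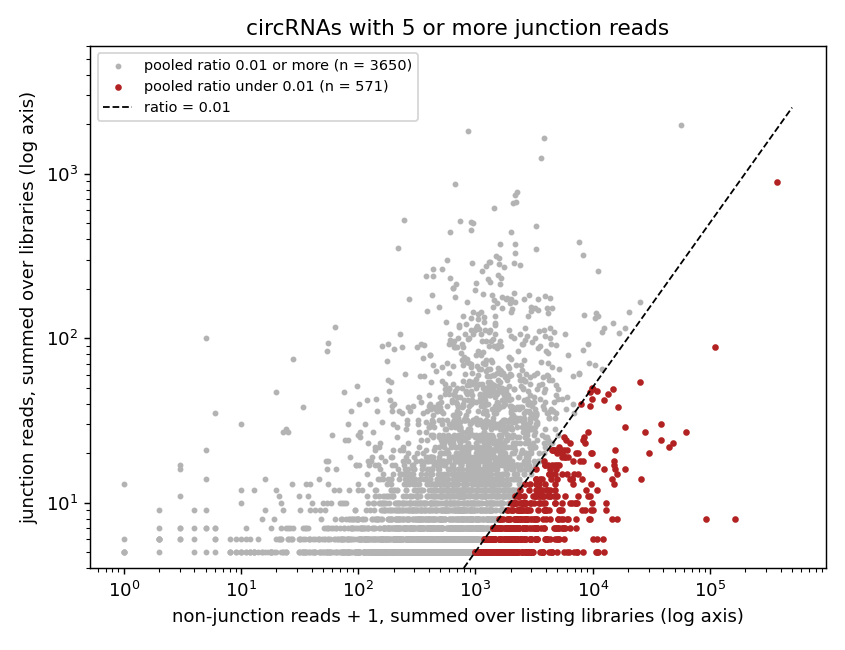
Junction reads against non-junction reads plus 1, both summed over libraries and on log axes, for the 4221 circRNAs with 5 or more junction reads. The 571 low-share circRNAs (red) lie under the dashed line at a ratio of 0.01 and all have 992 or more non-junction reads.

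The libraries listed 25983, 31218, 36156 and 28332 junction reads in order of stage. Of the pseudoglandular junction reads, low-share circRNAs held 4.35% (interval 4.11 to 4.61), and of the canalicular ones 4.38% (4.16 to 4.62). Their share was 5.69% (5.45 to 5.93) of the terminal sac reads and 6.41% (6.13 to 6.705) of the alveolar reads. Without the Sftpc circRNA these shares were 4.35%, 4.38%, 4.66% and 4.57%, so the later libraries stood higher mainly by that 1 circRNA. It made up 18.1% of the members' junction reads in the terminal sac library and 28.7% in the alveolar. In RNA of whole lung, fewer cells of a type and less RNA per cell cannot be told apart. Of non-junction reads, the members held 25.25%, 20.96%, 27.02% and 25.38% in order of stage. The lung labels were checked by the circular reads of marker hosts. Reads of Sftpc (0, 0, 376 and 521), the type 2 cell gene Lamp3 (0, 6, 64 and 110) and Pecam1 (3, 19, 22 and 39) were present, while Nkx2-1, Ager, Hopx, Tcf21, Acta2 and the haemoglobin genes had none. Of the cardiac-type markers, Ttn had 62, 11, 8 and 10 reads and Ryr2 11, 0, 0 and 2, both most in the pseudoglandular library, and Myh6 and Actc1 had none. No member came from these 4 genes, and their part in the comparisons with that library was not tested. Of the liver markers, Alb had 0, 0, 3 and 0 reads in order of stage and Afp had none. Their part in the comparisons with the terminal sac library was also not tested.

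The members came from 371 host genes. Most hosts, 262, had 1 member, 109 had 2 or more and 12 had 5 or more. Those 12 were Canx with 7, then Pde5a, Macf1 (a cytoskeletal linker), Smc4 (a condensin subunit), Adam10 (a membrane protease) and Prex2 (a Rac exchange factor) with 6 each, and Nedd4, Nfib (a transcription factor of lung development), Senp6 (a SUMO protease), Pecam1, Atad2 and Ccar1 with 5 each. The deposited type was exon for 568 members, intron for App (chr16:85013627-85043743) and Slk (chr19:47602800-47625484), and intergenic for 1 without a host (chr2:164844435-165290561). Both ends of the App circRNA are at exon boundaries of an M21 transcript, exons 7 to 12. The reason for the deposited type was not tested.

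Host abundance was measured away from the members' own ends. At the circRNAs of the same host that were not members, the median over hosts was 778 non-junction reads (quartiles 521 to 1255, 227 hosts) in the pseudoglandular library. Hosts without a member had 252 there (137 to 422, 1333 hosts). The medians were 908 against 284 in the canalicular library, 706 against 226 at the terminal sac stage and 723 against 234 at the alveolar. The member hosts stood 3.09, 3.20, 3.12 and 3.09 times higher in order of stage. With circRNAs that share an end with a member left out, the factor was 2.85, 3.03, 2.79 and 2.92. The median over hosts of low-share circRNAs was thus higher in each of the 4 libraries, also at ends that no member used. A member needs more than 990 non-junction reads at its own ends. Other ends of the same gene count linear RNA of that gene too, so this difference is partly set by the rule. Some hosts have no other circRNA in a library and are not in these medians. The member hosts also had a median of 2 circRNAs with 5 or more reads, against 1 for the other hosts.

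A low share was not shared by every circRNA of a host. Of the 371 hosts, 177 (47.7%) also gave a circRNA with 5 or more reads and a ratio of 0.01 or more. For 152 members (26.6%) such a circRNA used the same donor or acceptor end. The median partner had 3 times the junction reads and 1.01 times the non-junction reads of its member. Where several circRNAs shared an end with a member, the one with most junction reads was taken as its partner. The first of these factors is partly set by that choice and by the rule, since the partner has the higher ratio. Among 18 pairs listed in the same libraries the factors were 2.94 (quartiles 1.73 to 7.51) and 0.907 (0.745 to 0.957).

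Partners could be far more abundant. The long Strn3 circRNA of exons 2 to 14 had 10 junction reads, and a circRNA from the same acceptor had 1253. Strn3 encodes a striatin scaffold protein. The Arhgap5 circRNA had 5 reads against 482 in its partner. In Pde5a, circRNAs of 23, 18 and 7 reads started at the same exon as a circRNA of 386 reads with a ratio of 9.21%. The non-junction reads were 8512, 6739 and 4649 for the 3 members and 7608 for the partner. The third of these Pde5a members was not listed in the same libraries as the partner, and neither were the Strn3 and Arhgap5 members. In App, members of 49 and 20 reads each shared an end with a circRNA of 167 reads, whose own ratio was 1.305%. Stx6, a syntaxin of the Golgi, gave a member of 17 reads beside a circRNA of 183.

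The alignment patterns tell how many different placements the junction reads of a circRNA had. The files give 3 counts for each circRNA and library, for reads split once in either order and for reads split at both ends of the circle. They were added up over the libraries, so a placement seen in several libraries counts in each. The median was 1 pattern per junction read for the members and 0.953 for the other circRNAs. A circRNA with at most 0.5 patterns per read was counted as few-pattern. There were 44 such members (7.71%) against 422 of the other circRNAs (11.6%). At 5 to 9 reads the shares were 7.29% of 398 members and 19.1% of 1846 others, and at 10 to 19 reads 4.65% of 129 and 3.31% of 876. At 20 to 49 reads they were 15% of 40 and 3.47% of 605. At 50 or more reads 3 of 4 members were few-pattern, against 5.88% of 323 others. Few-pattern circRNAs were therefore a minority of the members but included those with most reads.

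**Figure D2:**
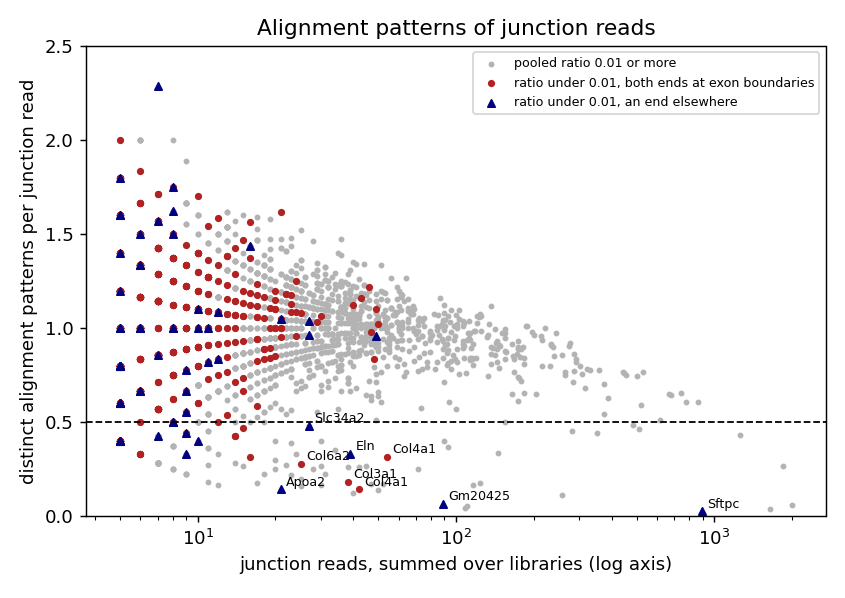
Distinct alignment patterns per junction read against junction reads (log axis) for the circRNAs with 5 or more reads, with low-share circRNAs in red or, where an end is not at an exon boundary, as blue triangles. The dashed line marks 0.5 patterns per read, and named points below it include Sftpc, with 24 patterns for 893 reads.

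A shared stretch of 6 or more bases (repeat-end) was found at the ends of 27 of 566 members whose ends lie in exons of 1 transcript (4.77%), and in 70 of 3316 others (2.11%). Few patterns or a repeat marked 63 members (11.0%), which held 26.7% of the members' 6372 junction reads. Among the others such circRNAs were 12.8% and held 14.6% of the reads. Of the 98 members listed in 1 library, 44 (44.9%) were marked in this way, against 19 of 473 (4.02%) of those listed in more. The same split among the other circRNAs was 42.8% of 929 and 2.57% of 2721. Since patterns were added up over libraries, a circRNA listed in more than 1 can reach more patterns per read. Both splits are therefore partly set by the counting. Whether few patterns or repeats play a part in the members' values was not tested.

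Both ends of 508 members (89.0%) were at exon boundaries of 1 transcript, against 85.4% of the others, and 472 members had in addition enough patterns and a repeat under 6 bases. In 58 members the ends lay in exons but not both at boundaries. Their inner ends had AG and GT in 51 and the reverse-strand pair AC and CT in 7. These 7 were Slc34a2, H19, Aqp1 (a water channel), Prpf8 (a spliceosome core protein), Eef2, Hsp90ab1 (a heat-shock chaperone) and Csrp1. Among the other circRNAs 198 had such ends, with 182 and 16 in the same order. The acceptor lay in exon 2 for 132 members (23.3%) and for 38.0% of the others, and in the 5′ UTR for 52 (9.19%) against 20.5%. These differences were not tested. Their exonic length was similar, with a median of 595.5 bases against 625.5, and 24 members consisted of 1 exon (4.24% against 6.695%).

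The Sftpc circRNA had most junction reads of all members. It had 0 reads in the pseudoglandular and canalicular libraries, 372 at the terminal sac stage and 521 in the alveolar library. Its ratio was 0.344% (interval 0.310 to 0.381) in the terminal sac library and 0.670% (0.614 to 0.729) in the alveolar. Behind these stood 215541 and 154593 non-junction reads. It was seen in the later libraries alone, and its reads had 8 patterns in the terminal sac library and 16 in the alveolar. Sftpc is among the most highly expressed genes of type 2 cells.

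The Gm20425 circRNA had 89 junction reads in the terminal sac library, with 111066 non-junction reads and 6 patterns, and none elsewhere. The strand setting of the counting is not given. The Gm20425 locus overlaps that of Trf, and their reads were not told apart here. The same holds for Ctnnb1 (beta-catenin, the Wnt effector), with 23, 13, 13 and 0 junction reads in order of stage, one of whose ends also lies in Ulk4. In all, 51 members (8.93%) had another gene at an end, as had 10.8% of the others.

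Several members of moderate abundance were listed at all stages with about 1 pattern per read. Picalm had 8, 10, 15 and 14 junction reads in order of stage, and its ratio ran from 0.767% to 1.19%. Ywhae had 19, 9, 11 and 7 reads and was highest in the pseudoglandular library. Nfib had 12, 11, 10 and 7 reads at ratios of 0.574% to 1.38%, and its ends share 6 bases. All 3 were listed in every library.

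Qk, which encodes the RNA-binding protein quaking, known as a regulator of circRNA formation, had 7, 4, 12 and 6 reads and a pooled ratio of 0.306%. Ctnna1 (alpha-catenin) had 14, 13, 12 and 4 reads and was lowest in the alveolar library. The intron-typed App circRNA had 5, 13, 22 and 9 reads and was highest in the terminal sac library.

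The 5 Nedd4 members all started at exon 2 (position 72669952), and their pooled ratios lay between 0.0946% and 0.158%. For exons 2 to 6, the junction reads were 7, 4, 17 and 2 in order of stage, beside 37996 non-junction reads. The one of exons 2 to 5 had 7, 3, 9 and 5 reads, and the one of exons 2 to 10 had 5, 6, 9 and 3. In these 3 circRNAs the terminal sac library had the most reads.

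The 8 lowest ratios came with 5 to 27 junction reads. Rpph1 gave 8 junction reads over 162210 non-junction reads in the pseudoglandular library, 0.00986%, and another pair of ends gave 8 over 93147 in the terminal sac library, 0.0172%. Both lie in or around a gene that the annotation gives as 1 exon. Next came a Qk circRNA of 5 reads (0.0807%), H19 with 20, 0, 7 and 0 reads (0.0865%), Csrp1 (0.0901%) and Ptms (0.0916%). Eef2 (0.0938%) and the Nedd4 circRNA of exons 2 to 10 (0.0946%) closed the 8 lowest. Of these 8, 6 did not have both ends at exon boundaries.

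**Figure D3:**
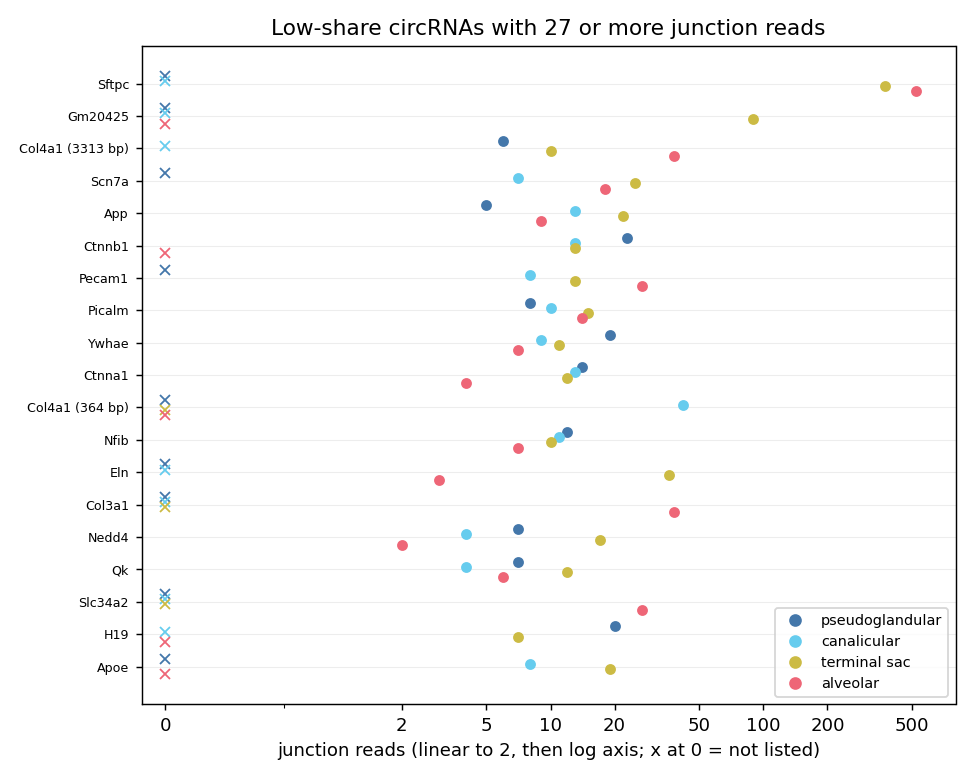
Junction reads in each library (symmetric log axis, linear to 2) for the low-share circRNAs with 27 or more reads, one row per circRNA and one colour per stage, with a cross at 0 where a library does not list it. Sftpc, Gm20425, Col3a1 and the shorter Col4a1 circRNA have crosses at 2 or more stages, while Picalm, Ywhae and Nfib have a point at each stage.

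Groups of host genes were described by lists that were drawn up with earlier results of these data known. For each list the count is of low-share circRNAs among its circRNAs with 5 or more reads, beside 13.5% over all 4221. Cytoskeleton genes gave 11 of 15 (73.3%), from Cald1, Flna, Macf1, Myh9, Sptan1 and Vcl, and 6 of the 11 were from Macf1. Metabolic and housekeeping genes gave 10 of 13 (76.9%), from Canx, Hsp90ab1, Hsp90b1 and Tcp1, and 7 of the 10 were from Canx.

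Endothelial genes gave 14 of 20 (70.0%), from Adgrf5, Calcrl, Pecam1, Prex2 and Tie1. Of the 14, Prex2 gave 6 and Pecam1 gave 5. All 14 had both ends at exon boundaries, and none was few-pattern or repeat-end. Pecam1 exons 8 to 13 had 0, 8, 13 and 27 junction reads in order of stage, and Prex2 exons 26 to 35 had 0, 0, 9 and 8. Adgrf5, an adhesion receptor of lung endothelium, had 2, 0, 5 and 11 reads. The 3 circRNAs had their reads mostly at the later stages.

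RNA-binding genes also gave 14 of 20 (70.0%), from Ddx17, Dhx9, Hnrnpm, Rbm25, Rbm39, Sf3b1 and Srsf1. The Ddx17 circRNA of exons 2 to 4 had 8, 2, 9 and 6 reads. Imprinted and growth genes gave 5 of 10 (50%), from H19, Igf2r (the mannose 6-phosphate receptor) and Xist. Ribosomal and translation genes gave 4 of 8 (50%), from Eef2 and Eif3a, and erythroid genes 3 of 8 (37.5%), all from Epb41, a membrane skeleton protein. Cell-cycle genes gave 10 of 35 (28.6%), from Cenpf, Mcm4, Prc1, Smc4 and Top2a, all at exon boundaries, and 6 of the 10 were from Smc4. The share was lowest in that list, and each list was above the 13.5% of all circRNAs, with no test made. A member needs more than 990 non-junction reads. Only 1636 circRNAs with 5 or more reads had that many, and 571 of these were low-share. How far the list shares follow from the abundance of their hosts was not tested.

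Matrix genes gave 19 of 46 (41.3%), from 10 hosts. Of these 19, 9 were few-pattern, 8 had a repeat of 6 or more bases and 13 had both ends at exon boundaries. Collagen chains consist of repeated triplets. Col3a1 gave 4 members, each listed in 1 library: 38 alveolar reads, 14 pseudoglandular reads, and 6 and 5 terminal sac reads. Col6a2 gave 3, with 25 and 6 canalicular reads and 15 alveolar reads. The Col4a1 circRNA of exons 21 to 23 had 6, 0, 10 and 38 reads in order of stage, and Eln had 0, 0, 36 and 3. Of the 19 matrix members, 15 were listed in 1 library, as were 5 of the 14 endothelial ones.

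The surfactant list gave 4 of 11 (36.4%), from Sftpc, Slc34a2, Atp8a1 (a phospholipid flippase) and Etv5 (a transcription factor of type 2 cells). Slc34a2 had 27 reads, all in the alveolar library, and 7 repeated bases at its ends. Atp8a1 had 0, 0, 5 and 4 reads and Etv5 had 0, 4, 4 and 0. Both of the latter had at least 1 pattern per read.

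**Figure D4:**
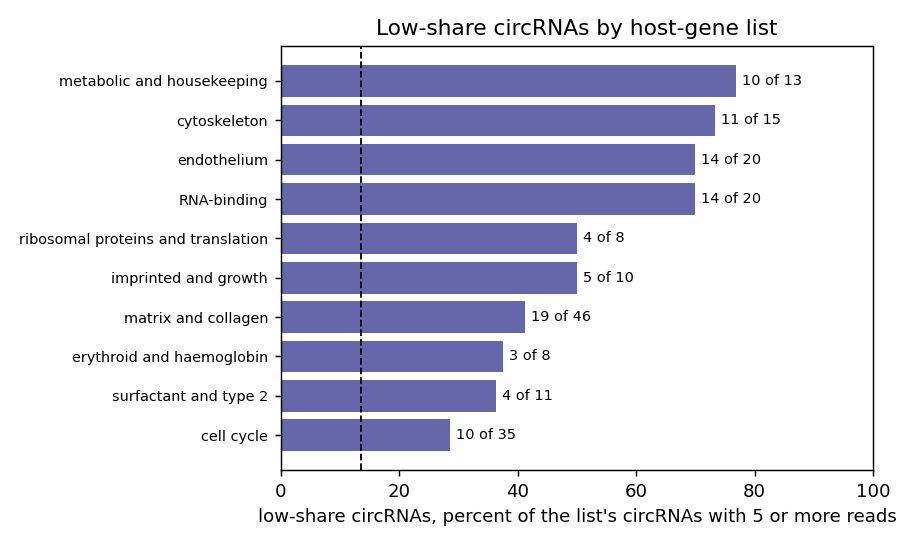
Share of each host-gene list's circRNAs with 5 or more reads that were low-share, in percent, with the counts beside the bars and a dashed line at the 13.5% of all such circRNAs. The metabolic and housekeeping list is highest at 76.9% and the cell-cycle list lowest at 28.6%.

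Between libraries, circRNAs whose junction reads in both added up to 10 or more were compared by their share of listed junction reads. A circRNA was called where the ratio was at least 2-fold and its exact interval excluded 1. An unlisted circRNA was set to 3 reads, which makes its estimated fold a lower bound apart from counting error, which the interval gives. Few members had that many reads. A member often reached 10 reads through the library where it was high, so its direction was partly set by that minimum. For a member unlisted in one of the libraries, the minimum set the direction in full. Libraries are shared between the 4 comparisons.

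Alveolar against pseudoglandular, 43 of the 571 members could be compared. Of them 9 (20.9%) were called higher and 8 (18.6%) lower, beside 12.2% and 17.4% of all 933 circRNAs compared. The median fold was 0.764 for the members and 0.917 for all. Of the 17 called members, 8 were few-pattern or repeat-end and 13 were unlisted in one of the libraries. Among members listed in both libraries, 2 were called higher and 2 lower. Without few-pattern and repeat-end members, 4 were called higher and 5 lower.

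The few-pattern Sftpc circRNA, with 521 reads against 0, was 159-fold higher in the alveolar library (interval 54.2 to 775). This fold and the others against 0 reads use 3 reads for the unlisted library. Pecam1 exons 8 to 13, with 27 against 0, was 8.25-fold higher (2.54 to 42.5). Scn7a, a sodium channel gene, had 0, 7, 25 and 18 reads in order of stage and was 5.50-fold higher (1.61 to 29.2). Rsu1, a Ras suppressor with 0, 3, 2 and 16 reads, was 4.89-fold higher (1.40 to 26.2). Adgrf5 was 5.04-fold higher (interval 1.10 to 46.8). Pecam1, Scn7a, Rsu1 and Adgrf5 were the members called higher without few patterns or a repeat. Lower were Ctnnb1 (23 against 0, 8.36-fold, 2.53 to 43.5) and H19 (20 against 0, 7.27-fold, 2.16 to 38.2). Ywhae (19 against 7, 2.96-fold, 1.19 to 8.33) and Ctnna1 (14 against 4, 3.82-fold, 1.20 to 15.9) were also lower.

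Canalicular against pseudoglandular, 43 members were compared, 2 (4.65%) were called higher and 7 (16.3%) lower, beside 8.16% and 9.83% of all 1017 compared. The median fold was 0.595 for the members and 1.05 for all. Ywhae fell 2.54-fold (1.09 to 6.37) from 19 to 9 reads, and Zfp638, from 11 to 2 reads, was 6.61-fold lower (1.44 to 61.4). Ctnnb1 was 2.13-fold lower (1.03 to 4.57), with 13 reads against 23. The 2 called higher were the few-pattern Col4a1 circRNA of exons 34 to 35 (42 against 0) and that of Col6a2 (25 against 0). Without few-pattern and repeat-end members, 0 were called higher and 4 lower.

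Terminal sac against canalicular, 61 members were compared, 6 (9.84%) were called higher and 3 (4.92%) lower, beside 8.94% and 11.2% of all 1208. The median fold was 1.30 for the members and 0.987 for all. Nedd4 exons 2 to 6 rose from 4 to 17 reads, 3.67-fold (1.20 to 14.99), and Scn7a from 7 to 25 reads, 3.08-fold (1.30 to 8.44). The other 4 called higher were Sftpc, Gm20425, Eln and Apoa2, all few-pattern and not listed in the canalicular library. Of these, Gm20425 and Apoa2 were listed in the terminal sac library alone, as was the liver marker Alb. Whether these are linked was not tested. Rad23b, which encodes a shuttle for ubiquitinated proteins, was 5.21-fold lower (1.08 to 49.6), at 2 reads against 9. Without few-pattern and repeat-end members, 2 were called higher and 1 lower.

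Alveolar against terminal sac, 59 members were compared, 9 (15.3%) were called higher and 5 (8.475%) lower, beside 10.5% and 11.0% of all 1123. The median fold was 0.812 for the members and 0.851 for all. Pecam1 rose from 13 to 27 reads, 2.65-fold (1.32 to 5.59), and Rsu1 from 2 to 16, 10.2-fold (2.40 to 91.5). Plxdc2 went from 3 to 11 reads, 4.68-fold (1.24 to 26.1), and Flna (filamin A, an actin crosslinker) from 2 to 9, 5.74-fold (1.19 to 54.6). Col4a1 exons 21 to 23, few-pattern and repeat-end, was 4.85-fold higher (2.37 to 10.9). Of the members called in this pair, 8 were few-pattern or repeat-end. Nedd4 exons 2 to 6 fell back from 17 to 2 reads, 6.66-fold lower (1.58 to 59.4). Without few-pattern and repeat-end members, 5 were called higher and 1 lower. In each of the 4 comparisons the members' counts rested on 2 to 9 circRNAs per direction, so a share above or below that of all circRNAs turns on few of them.

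The ratio itself was followed in the 54 members listed in all 4 libraries. Its medians were 0.511%, 0.431%, 0.784% and 0.590% in order of stage. Among the 843 others listed in all 4 the medians were 4.71%, 5.32%, 7.55% and 5.53%. In both groups the terminal sac library had the highest median. The ratio was under 1% in every library that listed the circRNA for 398 of the 571 members (69.7%).

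**Figure D5:**
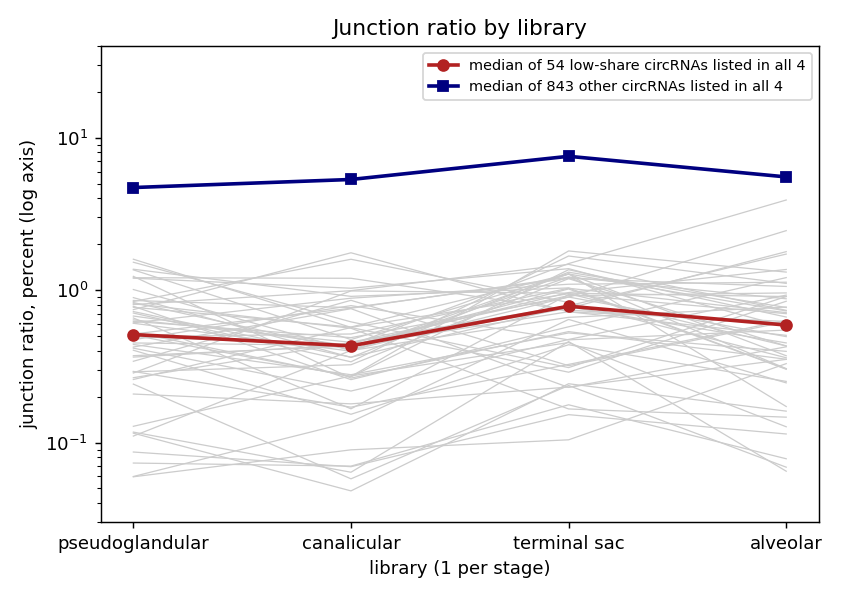
Junction ratio in percent (log axis) by library for the 54 low-share circRNAs listed in all 4 libraries (grey lines, median in red) and the median of the 843 others listed in all 4 (blue). Both medians are highest in the terminal sac library, at 0.784% and 7.55%.

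Junction ratios were compared by the odds of junction to non-junction reads, for circRNAs compared above and listed in both libraries. A ratio was called by the same limits, at least 2-fold with an interval that excludes 1. Terminal sac against canalicular, 9 of 52 members were called higher in ratio and 2 lower, beside 20.1% and 2.66% of all 1089. The median odds ratio was 1.65 for the members and 1.47 for all. Nedd4 exons 2 to 6 went from 0.0639% to 0.460%, an odds ratio of 6.61 (2.35 to 18.6), and exons 2 to 5 from 0.0482% to 0.243% (4.58, 1.34 to 15.6). Smc4 exons 9 to 13 went from 0.272% to 1.81% (6.11, 1.79 to 20.9) and Top2a, a DNA topoisomerase of dividing cells, from 0.137% to 0.642% (4.73, 1.59 to 14.03). Ddx17 went from 0.167% to 0.935% (4.78, 1.18 to 19.3). Rnf2, the few-pattern Rpn1 and Canx exons 5 to 9 were also called higher. The 2 called lower were Macf1 exons 2 to 5 and Apoe, whose ends share 6 bases.

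Alveolar against terminal sac, 2 of 49 members were called higher in ratio and 8 lower, beside 3.6% and 19.7% of all 1000. The median odds ratio was 0.664 for the members and 0.709 for all. App exons 7 to 12 went from 1.22% to 0.305%, 3.89 times lower (1.82 to 8.32), and App exons 7 to 9 from 0.237% to 0.0689%, 3.23 times lower (1.05 to 9.91). Pde5a exons 2 to 7 went from 1.28% to 0.172%, 6.79 times lower (1.99 to 23.2), with 6 bases shared by its ends. Rsu1 (5.29 times, 1.40 to 20.03) and the few-pattern, repeat-end Col4a1 exons 21 to 23 (3.16 times, 1.60 to 6.26) were the 2 called higher. For App exons 7 to 12 the junction reads went from 22 to 9 and the non-junction reads from 3573 to 5875. For Pde5a exons 2 to 7 they went from 9 to 3 and from 1390 to 3476. The share of junction reads of App exons 7 to 12 was not called between these libraries (0.522-fold, 0.212 to 1.18).

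Alveolar against pseudoglandular, 3 of 29 members were called higher in ratio and 3 lower, beside 14.7% and 7.64% of all 798. The median odds ratio was 0.699 for the members and 1.18 for all. Fip1l1, a polyadenylation factor, went from 0.624% to 2.46%, and Senp6 exons 6 to 13 from 0.266% to 1.72%. Ctnna1 fell 4.19 times (1.45 to 12.1). Canalicular against pseudoglandular, 0 of 34 members were called higher in ratio and 2 lower, beside 10.9% and 4.86% of all 906. The median odds ratio was 0.636 for the members and 1.18 for all. In these 2 comparisons with the pseudoglandular library the members' median was below 1 and that of all circRNAs above it. The 2 members called lower in the canalicular library were Ywhae (2.45 times lower, 1.13 to 5.32) and Zfp638 (7.08 times lower, 1.80 to 27.8). The 54 members listed in all 4 libraries had a median of 4 or 5 junction reads per library, and small differences were not detectable at this depth.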

How the data were processed

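Total RNA of whole lung was sequenced, 1 library per stage. Build mm10 and the tools BWA, cutadapt, HTSeq, StringTie and HISAT2 2.0.5 stand in the submitters' processing notes, without roles. The version, annotation, strand setting and filters of the caller are not given in the sources used here. Both kinds of read are raw counts as the authors deposited them, per the file headers. The deposited ratio is a fraction, and recomputing it gave 0 differences above 0.001. The other deposited column used, SM_MS_SMS, counts distinct alignment patterns, from what CIRI is known to write there.

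Counts were summed per chromosome, start and end, and a blank non-junction count was read as 0. The members and lists were chosen with earlier results of these data known. Exon boundaries and repeats came from GENCODE M21 transcripts on mm10. The design named genome sequence for this, so splice dinucleotides at boundary ends and repeats outside exons were not analysed here. A repeat-end circRNA has 6 or more shared bases, and a few-pattern one at most 0.5 patterns per read. Shares of reads were compared with exact conditional binomial 95% intervals, and junction ratios by odds ratios with Woolf's interval and 0.5 added. Shares and single ratios carry exact Clopper-Pearson intervals. The calling script was tested on simulated data. Depth was 25983 to 36156 listed junction reads per library.

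Named were the 12 members with most reads, the 8 with the lowest ratios, the 3 nearest the limit on each side, up to 6 called each way per pair, hosts with 2 or more members, the 4 longest repeats, the 4 with most patterns per read and up to 10 at exon boundaries. Not every circRNA this rule selects is described, 1 host gene is not reported here, and some list members, shared-end pairs and junction-ratio calls were chosen after their values were seen. Alternatives were other ratio, read and repeat limits, libraries left out, merged junctions and other scalings. Python 3.11.15 with numpy 2.4.6, scipy 1.17.1, pandas 2.3.3 and matplotlib 3.10.9 was used.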

Additional observations from a re-analysis of the deposited data

How the results depend on the processing

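The number of low-share circRNAs followed the limits: it was 200 at a ratio under 0.005, 1399 under 0.02, 173 with 10 or more junction reads and 1480 with 3 or more, against 571. It was 383 to 431 with a library left out and 570 with junctions within 5 bases merged. Repeat-end members were 76 at 4 or more bases and 14 at 8 or more, and few-pattern members 8 at 0.33 patterns per read.

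Calls between libraries rested on few reads. With 20 or more reads in the pair, alveolar against pseudoglandular had 5 higher and 3 lower, canalicular against pseudoglandular 3 lower, and alveolar against terminal sac 4 higher and 3 lower. Among members listed in both libraries there were 2 higher and 2 lower for alveolar against pseudoglandular, 0 and 3 for canalicular against pseudoglandular, 2 and 1 for terminal sac against canalicular, and 6 and 2 for alveolar against terminal sac. Without few-pattern and repeat-end members, an alternative chosen after seeing the data, as was leaving out shared ends for host abundance, the counts were 4 and 5, 0 and 4, 2 and 1, and 5 and 1 in the order of the report. Scaling by the median of ratios gave 11 higher and 7 lower for alveolar against pseudoglandular and 11 and 5 for alveolar against terminal sac. It moved the median fold of all circRNAs from 0.917 to 1.05 and from 0.851 to 0.966. Scaling by non-junction reads moved it from 1.05 to 1.19 for canalicular against pseudoglandular, with 2 higher and 5 lower. These alternatives have fewer circRNAs to compare or another scale. Junction-ratio calls were the same in number without the added constant. No paired analysis was possible because each stage has 1 library.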
